A study of Homo sapiens with 12 samples.

Results

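The module described here holds 40 genes of antigen presentation and interferon response, taken by name from a fixed membership list out of the 19423 genes measured. It was read in 3 classes: 14 genes of the MHC class I pathway, 8 of the class II pathway and 18 interferon-induced genes. The comparison asks how these genes differ between cells kept for taking up beads and cells kept for not doing so. RNA was sequenced after poly(A) selection from 2 established human cancer cell lines, A375, from a cutaneous melanoma, and 253J, from a transitional cell carcinoma of the bladder. Each line gave a positive branch, whose cells carried at least 1 fluorescent bead of 2.4 µm after 24 h of incubation, and a negative branch, whose cells carried none. Both branches of a line descend from the same parental culture, and in both only cells that kept their phenotype were carried on, with 5 rounds of sorting and 5 generations of growth before each. Every line and branch has 3 libraries. No interferon treatment is named in the labels, and beads and medium were shared by both branches.

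MHC class I molecules, a heavy chain with B2M, show peptides made by the proteasome and carried into the endoplasmic reticulum by TAP, and nearly all nucleated cells use them. Class II molecules show peptides from endosomes, are guided there by the invariant chain CD74, and depend on the coactivator CIITA. They belong mainly to professional antigen-presenting cells, although melanoma cells can carry them without an immune cell nearby. Interferons signal through JAK kinases and STAT factors, which switch on antiviral genes such as the IFITM, IFIT and OAS families and raise both presentation pathways.

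Levels are normalized read counts, that is, gene counts divided by 1 size factor per library, which are comparable between libraries of 1 line and not between lines or between genes of different length. Each fold change is the positive minus the negative mean of log2(value + 1) with its standard error (SE), and a gene was called at an adjusted p under 0.05 in limma's test across all genes with a mean of at least 10. Library totals were 14576506 to 17916519 reads. Separate cultures are not stated for the 3 libraries of a branch, so the p-values measure only the spread between these libraries, which may be technical. Since the labels describe 1 sorted lineage per branch and line, drift of a branch and a difference tied to uptake cannot be told apart. The labels' sample numbers form a low set (up to 12) and a high set (from 19), whose meaning the sources used here do not give. The low set holds positive replicates 1 and 2 with negative replicate 1 of A375, and replicates 1 and 2 of each branch of 253J. Libraries of 1 branch from the same set differed little beyond sampling noise (chi-square per degree of freedom 1.25 to 1.63), while those from different sets differed by 7.17 to 17.1. Both lines matched their labels in outline. Melanocytic markers summed to 12469.2 to 15699.8 in A375 positive libraries and 15111.8 to 26949.5 in the negative ones. In 253J they summed to 1237.7 to 1278.8 and 1216.8 to 1288.3. Epithelial markers summed to 37304.2 to 39105.8 in 253J positive libraries and 35315.3 to 41572.5 in the negative ones. In A375 they summed to 974.3 to 1065.0 and 1193.5 to 1277.7. These sums are not scaled between lines, so the match is rough.

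The promoters of 5 members are shown, from 250 bases before to 50 bases after the gene start on the gene's own strand (RefSeq, GRCh38.p14). They hold letters known from class II or interferon-response promoters, and PSMB10 is the only class I member among them. CD74 (chr5:150412861-150413160, minus strand) and HLA-DRB1 (chr6:32589799-32590098, minus strand) stand for class II, and their capitals mark CCAAT or its reverse complement and, in HLA-DRB1, AGCAACNG, the core of the class II X box. PSMB10 (chr16:67936801-67937100, minus strand), IFITM1 (chr11:313790-314089, plus strand) and IFITM3 (chr11:320811-321110, minus strand) stand for the interferon response, and their capitals mark GAAA, 2 bases of any kind and GAAA, the core of the interferon-stimulated response element (ISRE).
CD74: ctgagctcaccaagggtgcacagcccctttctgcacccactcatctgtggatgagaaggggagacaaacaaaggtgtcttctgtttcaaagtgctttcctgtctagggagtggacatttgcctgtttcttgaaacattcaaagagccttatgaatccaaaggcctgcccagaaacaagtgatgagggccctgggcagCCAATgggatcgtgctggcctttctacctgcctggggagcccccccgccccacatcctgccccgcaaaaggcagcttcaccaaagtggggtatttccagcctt
HLA-DRB1: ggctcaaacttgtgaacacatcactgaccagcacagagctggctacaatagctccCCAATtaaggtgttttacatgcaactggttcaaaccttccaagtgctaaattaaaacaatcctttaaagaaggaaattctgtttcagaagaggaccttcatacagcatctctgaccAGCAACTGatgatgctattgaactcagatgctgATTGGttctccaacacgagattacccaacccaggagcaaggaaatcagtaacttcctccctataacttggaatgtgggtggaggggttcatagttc
PSMB10: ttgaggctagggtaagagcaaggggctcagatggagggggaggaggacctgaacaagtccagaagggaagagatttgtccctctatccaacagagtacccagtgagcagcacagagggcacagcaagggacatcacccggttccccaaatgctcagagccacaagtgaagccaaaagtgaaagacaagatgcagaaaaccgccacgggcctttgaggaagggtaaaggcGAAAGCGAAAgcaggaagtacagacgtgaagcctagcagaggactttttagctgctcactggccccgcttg
IFITM1: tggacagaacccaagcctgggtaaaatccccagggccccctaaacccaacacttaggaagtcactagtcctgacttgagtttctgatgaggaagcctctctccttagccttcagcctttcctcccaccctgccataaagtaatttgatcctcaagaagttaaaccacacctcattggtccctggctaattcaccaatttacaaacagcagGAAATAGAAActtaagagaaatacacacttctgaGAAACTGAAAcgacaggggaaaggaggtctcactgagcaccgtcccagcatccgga
IFITM3: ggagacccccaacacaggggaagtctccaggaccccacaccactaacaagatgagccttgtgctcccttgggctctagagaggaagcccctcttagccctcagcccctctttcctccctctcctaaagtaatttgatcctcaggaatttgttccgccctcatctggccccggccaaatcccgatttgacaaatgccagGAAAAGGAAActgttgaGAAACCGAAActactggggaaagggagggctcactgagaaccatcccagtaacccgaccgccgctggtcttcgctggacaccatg
Of the 40 members, 33 were matched to the RefSeq promoters; HLA-E, NLRC5, CIITA, HLA-DRA, IFITM2, IFIT2 and IRF7 were not. Searched on both strands, this ISRE core lay in the window of 9 of 12 class I members, of 0 of 6 class II members and of 10 of 15 interferon-induced members, beside 4.38% of all 27305 genes. AGCAACNG was found for HLA-DPA1 and HLA-DRB1 among 6 class II members, for PSMB8 among 12 class I members and for 0 of 15 interferon-induced members (5.24% of all genes). TTCNNNGAA, the palindrome bound by STAT dimers, was found for 2 of 12 class I, 0 of 6 class II and 7 of 15 interferon-induced members (9.38% of all genes), and in IFITM1 it overlaps the second ISRE core match. CCAAT was found for 7 of 12, 5 of 6 and 6 of 15 members of these classes (39.7% of all genes). These 4 patterns were kept from a longer set of variants, and the 5 promoters were picked, after the matches had been seen, so the counts are a description with no test. A match says nothing of binding.

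In A375 the class II coactivator CIITA, the invariant chain CD74 and the alpha chains HLA-DRA and HLA-DPA1 were lower in positive cells, together with IFITM2 and IFITM3, and PSMB10 was higher. Of all 39 members tested in A375, 7 were called, 6 lower and 1 higher, beside 10.2% of all 14118 genes tested, 5.26% lower and 4.99% higher. The median log2 fold change of the members was -0.16, against 0.00 over all genes. In 13 members every positive library lay below every negative one and in 2 every positive library lay above, beside 15.0% and 14.4% of all genes (29.5% together). With the number set blocked, that is, entered as a covariate, 13 members were called, 11 lower and 2 higher, beside 32.0% of all genes, 16.5% lower and 15.6% higher. Since same-set libraries differ little, these blocked p-values may be too small. None of the 6 members that the block added was called by limma once same-set libraries were averaged (adjusted p 0.29 to 0.653). Of the 7 members called without the block, this averaging left only IFITM2 called (limma adjusted p = 0.0464). The others had adjusted p from 0.0667 (HLA-DRA) to 0.224 (PSMB10). The median was -0.55 for class II, -0.02 for class I and -0.21 for the interferon-induced class. The number sets are divided unevenly between the A375 branches, so these unblocked values can also carry differences between the sets. With the number set blocked the medians were -0.43, 0.04 and -0.16 in the same order, and -0.09 over all members.

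**Figure D1:**
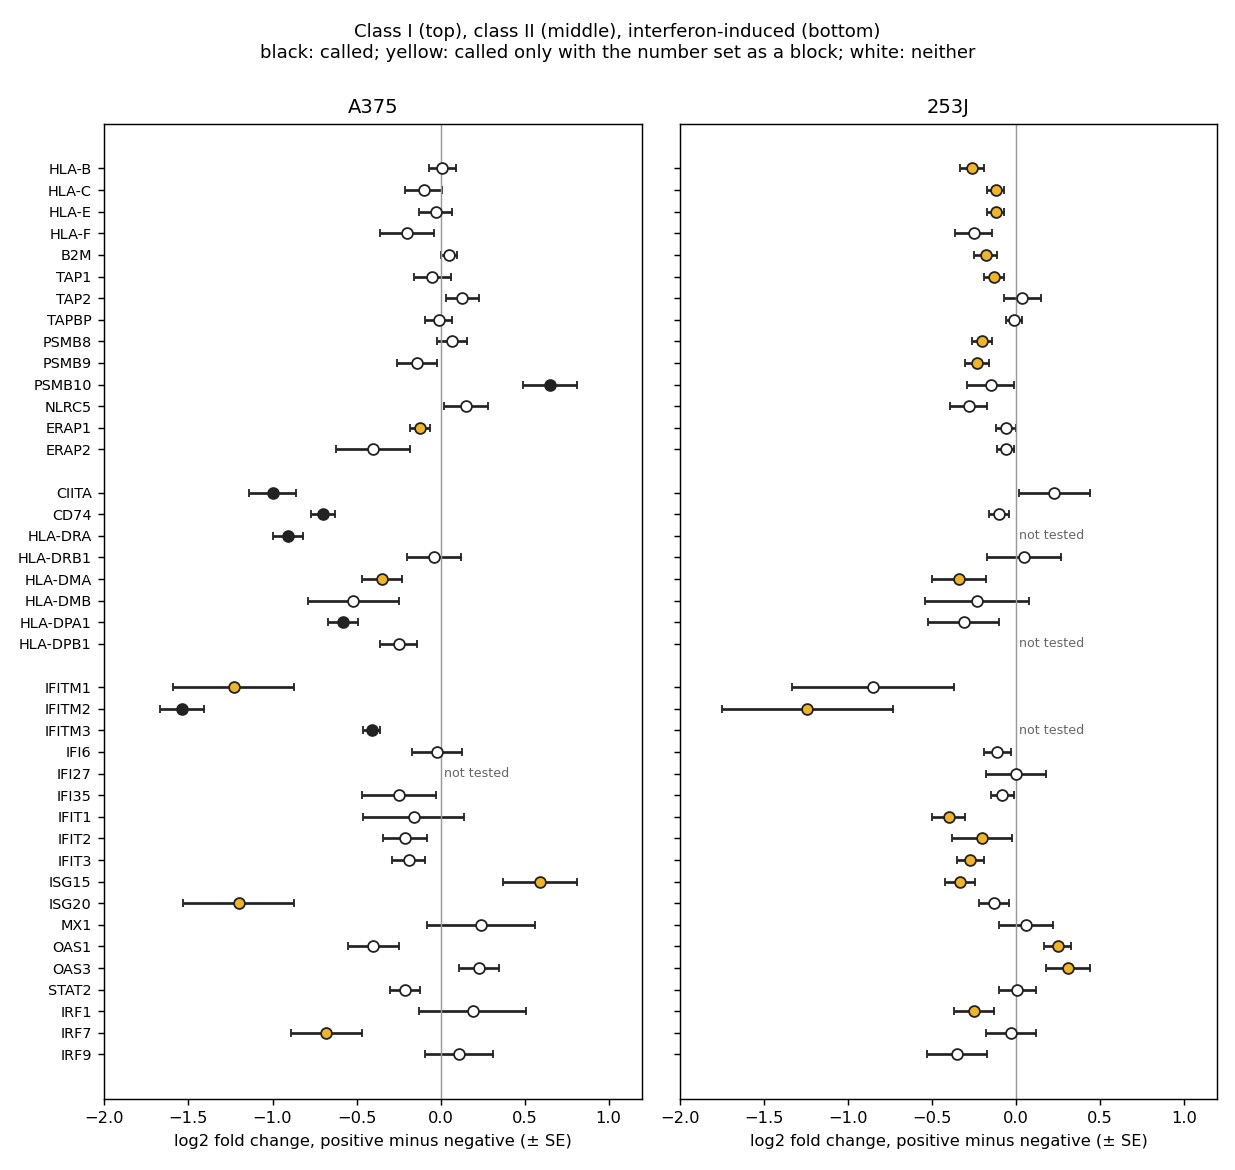
Log2 fold change of each tested member, positive minus negative, with its SE (bars), in A375 (left) and 253J (right). Black points were called, yellow points were called only with the number set blocked, and white points by neither fit; the called class II genes of A375 lie between -1.0 (CIITA) and -0.58 (HLA-DPA1), and no point is black in 253J.

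CIITA, the coactivator without which class II genes are hardly transcribed (ENSG00000179583; chromosome 16, 10866222 to 10943021, plus strand, GRCh38), had 162.0, 158.0 and 123.6 normalized counts in A375 positive libraries, against 337.1, 257.2 and 292.6 in A375 negative libraries. Every positive library lay below every negative one, by 1.99-fold in the mean (log2 fold change -1.0, SE 0.14, adjusted p = 0.00611). Within the low and the high number set the difference was -1.07 and -1.14. The annotated gene shares 13570 bases with DEXI on the opposite strand, and the sources used here do not give the strand setting of the counting.

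CD74, the invariant chain that fills the class II groove until the endosome (ENSG00000019582; chromosome 5, 150401637 to 150412929, minus strand), had 1247.8, 1147.5 and 1384.3 in A375 positive libraries, against 2067.6, 1968.4 and 2073.4 in A375 negative libraries. It was 1.62-fold lower (log2 fold change -0.70, SE 0.07, adjusted p = 0.00182), with the groups well apart. HLA-DRA, the invariant alpha chain of HLA-DR (ENSG00000204287; chromosome 6, 32439842 to 32445046, plus strand), had 361.3, 307.4 and 389.1 in A375 positive libraries, against 660.3, 664.7 and 661.9 in A375 negative libraries. It was 1.88-fold lower (-0.91, SE 0.09, adjusted p = 0.0015), and its 3 negative libraries differed among themselves by far less than its positive ones. HLA-DPA1, the alpha chain of HLA-DP (ENSG00000231389; chromosome 6, 33064569 to 33080775, minus strand), had 271.0, 300.8 and 336.5 in A375 positive libraries, against 455.8, 448.1 and 451.9 in A375 negative libraries. Here too the groups did not overlap (-0.58, SE 0.09, adjusted p = 0.00814). It shares 4850 annotated bases with its partner HLA-DPB1 on the opposite strand. Within the low and the high number set the differences were -0.79 and -0.55 for CD74, -0.98 and -0.77 for HLA-DRA, and -0.67 and -0.42 for HLA-DPA1.

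The other 4 class II members were not called in A375, and all had a negative log2 fold change. HLA-DMA, the alpha chain of the peptide editor HLA-DM, had 147.4, 158.9 and 177.3 in A375 positive libraries, against 179.5, 209.7 and 229.9 in A375 negative libraries (-0.35, SE 0.12, adjusted p = 0.125). Its groups did not overlap, though positive replicate 3 and negative replicate 1 nearly met, and with the number set blocked it was called (-0.27, adjusted p = 0.0352). HLA-DPB1 (-0.25, adjusted p = 0.193) and HLA-DMB (-0.52, adjusted p = 0.296) were not called, and neither was HLA-DRB1 (-0.04, SE 0.16, adjusted p = 0.912), the beta chain that pairs with HLA-DRA. HLA-DRB1 had 47.8, 60.5 and 52.7 in A375 positive libraries and 58.8, 56.4 and 49.8 in A375 negative libraries, which overlap fully. HLA-DRB5, a second DR beta chain gene outside the module, was 2.31-fold lower, with 13.6 ± 1.93 in A375 positive libraries and 32.8 ± 6.08 in the negative ones (SD, n = 3 each; log2 fold change -1.21, limma adjusted p = 0.0164). That call was lost when positive replicate 1 or 2 or negative replicate 2 was left out (highest adjusted p = 0.0795). It was also lost with same-set libraries averaged. HLA-DRB1 and HLA-DRB5 are near-identical copies whose reads the counting may have split, so neither value is certain on its own.

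**Figure D2:**
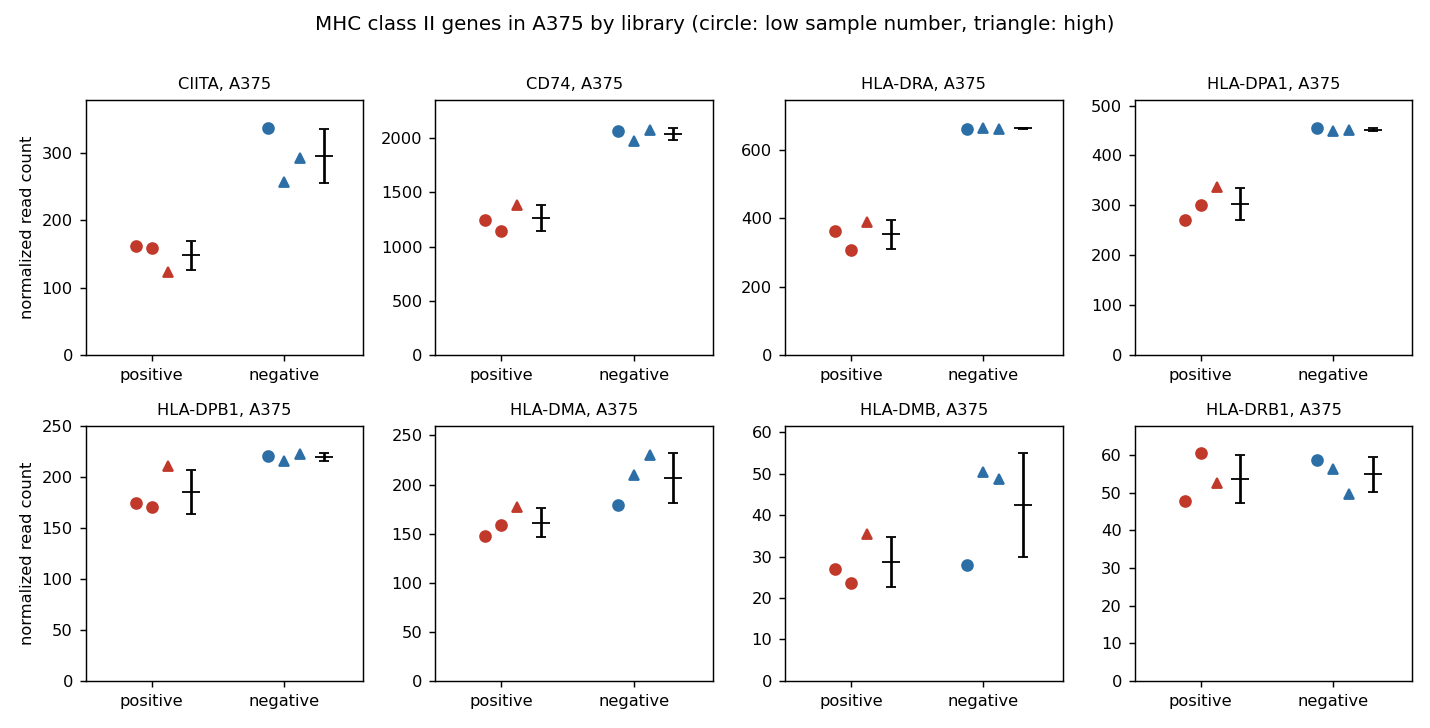
Normalized read counts of the 8 class II members in each A375 library, positive (red) left of negative (blue); circles are libraries with low and triangles with high sample numbers, and black bars are the mean ± SD of 3 libraries. The positive libraries lie below the negative ones for all genes shown but HLA-DMB and HLA-DRB1, where they overlap.

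The summed normalized counts of the 8 class II members ran from 2327.9 to 2709.8 in A375 positive libraries and from 3870.5 to 4031.3 in A375 negative libraries. Less RNA per cell and fewer cells with class II RNA cannot be told apart in such bulk libraries. Markers of leukocytes and antigen-presenting cells, the usual carriers of class II, were measured for 5 of 15 listed genes and summed to 35.9 to 124.7 in A375 positive libraries and 21 to 62.3 in the negative ones. PTPRC, the pan-leukocyte antigen CD45, ranged over 1.0 to 14.2 in A375 positive libraries, against 1.0 to 9.9 in A375 negative libraries. Most of that sum was ITGAX, with 28.4 to 98.3 in A375 positive libraries and 18.0 to 42.5 in the negative ones. ITGAX, the only marker of this list tested in A375, was not called (0.73, limma adjusted p = 0.395). It was called higher with the number set blocked (1.15), and not with same-set libraries averaged (limma adjusted p = 0.499). In the wider class II pathway, 13 of the 16 listed genes that were measured could be tested in A375. HLA-DRB5 was lower and the other 12 were not called, beside 5.26% of all genes called lower. Markers of the lines moved as well: of 6 melanocytic markers tested in A375, 2 were lower in positive cells, beside the same 5.26%. TYR, the tyrosinase of pigment synthesis, had 8.3, 11.4 and 7.1 in A375 positive libraries, against 48.9, 69.2 and 92.6 in A375 negative libraries (-2.82, SE 0.29, limma adjusted p = 0.0015), and was called whichever library was left out. DCT, another pigment enzyme, had 3858.8, 4416.9 and 6208.2 in A375 positive libraries, against 7154.4, 15183.5 and 14845.3 in A375 negative libraries (-1.31, SE 0.30, adjusted p = 0.0312). The groups were apart for both, but the DCT call held only without positive replicate 3 or negative replicate 1. Of 3 epithelial markers tested, KRT18 was lower (-0.28, adjusted p = 0.0417), a call lost whichever library was left out. None of these 3 was called with same-set libraries averaged, and their part in the class II difference was not tested.

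The class I pathway of A375 showed 1 call. PSMB10, a catalytic subunit of the immunoproteasome (ENSG00000205220; chromosome 16, 67934502 to 67937087, minus strand), had 83.1, 88.0 and 80.1 normalized counts in A375 positive libraries, against 54.9, 62.3 and 43.8 in A375 negative libraries. It was 1.56-fold higher with no overlap (log2 fold change 0.65, SE 0.16, adjusted p = 0.0436). The call was lost whichever 1 of the 6 libraries was left out (adjusted p 0.0525 to 0.16) and with DESeq2 (adjusted p = 0.0635). PSMB10 shares 1516 annotated bases with AC040162.1 on the same strand. Its partner subunits were not called, PSMB8 at 0.07 (SE 0.09, adjusted p = 0.7) and PSMB9 at -0.14 (SE 0.12, adjusted p = 0.528).

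The other 13 class I members were not called in A375, with log2 fold changes from -0.40 (ERAP2) to 0.15 (NLRC5, the class I counterpart of CIITA). The light chain B2M had 5017.3, 5251.2 and 5609.2 in A375 positive libraries and 4990.0, 5216.8 and 5084.5 in A375 negative libraries (0.05, SE 0.05, adjusted p = 0.613). ERAP1, the aminopeptidase that trims class I peptides, had 1061.0, 1018.8 and 997.2 in A375 positive libraries, against 1072.2, 1152.4 and 1129.8 in A375 negative libraries. Its libraries just failed to meet (-0.12, adjusted p = 0.228), and it was called only with the number set blocked (adjusted p = 0.0496). The heavy chains HLA-B (0.01, SE 0.08), HLA-C (-0.10, SE 0.11) and HLA-E (-0.03, SE 0.10) overlapped between branches. They are related genes between which reads may be split, and the annotated HLA-B and HLA-C share 2640 bases on 1 strand. None of the 16 other class I pathway genes was called in A375 by limma, edgeR or DESeq2 (3 had an unadjusted p under 0.05). Their median was 0.09, and 1 gene separated in each direction, beside 14.4% of all genes upward and 15.0% downward. With the number set blocked 5 of them were higher and 1 lower, beside 15.6% and 16.5% of all genes. None was called with same-set libraries averaged.

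Among the 17 interferon-induced members tested in A375, IFITM2 and IFITM3 of chromosome 11 were lower and the other 15 were not called. IFITM proteins sit in plasma and endosomal membranes and hinder the entry of enveloped viruses. IFITM2 (ENSG00000185201; chromosome 11, 307631 to 315272, plus strand) had 158.8, 125.8 and 179.4 normalized counts in A375 positive libraries, against 439.9, 456.0 and 445.9 in A375 negative libraries. The groups stood far apart, with a 2.91-fold lower mean (log2 fold change -1.54, SE 0.13, adjusted p = 0.000745). IFITM3 (ENSG00000142089; chromosome 11, 319669 to 327537, minus strand) had 3075.0, 2926.9 and 3072.7 in A375 positive libraries, against 4099.3, 3974.4 and 3966.7 in A375 negative libraries. It was 1.33-fold lower without overlap (-0.41, SE 0.05, adjusted p = 0.00251). Within the low and the high number set the differences were -1.63 and -1.32 for IFITM2 and -0.45 and -0.37 for IFITM3.

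IFITM1 (chromosome 11, 313506 to 315272, plus strand) had 109.0, 91.8 and 231.1 in A375 positive libraries, against 211.5, 394.7 and 363.3 in A375 negative libraries (-1.23, SE 0.36, adjusted p = 0.0748). Positive replicate 3 lay above negative replicate 1, and these 2 libraries belong to opposite number sets. With the number set blocked IFITM1 was lower (-0.89, adjusted p = 2.26e-08, but 0.517 with same-set libraries averaged), as it was without positive replicate 3 (adjusted p = 0.00888) or negative replicate 1 (adjusted p = 0.0263). All 1767 annotated bases of IFITM1 lie within IFITM2 on the same strand, so the reads of the pair cannot be told apart with certainty. Protein-coding genes of chromosome 11 had a median log2 fold change of -0.27 in A375, and 89.1% of the 691 tested had a negative sign. Relative to that median the differences were -1.27 for IFITM2, -0.96 for IFITM1, -0.41 for IRF7 and -0.14 for IFITM3, a description with no test.

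IRF7, the transcription factor that amplifies type I interferon (chromosome 11), had 30.1, 39.7 and 24.3 in A375 positive libraries, against 56.9, 46.5 and 46.8 in A375 negative libraries. The groups did not overlap (-0.68, SE 0.21, adjusted p = 0.0933), and with the number set blocked it was lower (-0.81, adjusted p = 0.00238, but 0.29 with same-set libraries averaged). ISG20, an antiviral RNA exonuclease on chromosome 15, had 276.1, 286.6 and 543.2 in A375 positive libraries, against 518.7, 991.1 and 1015.3 in A375 negative libraries (-1.20, SE 0.33, adjusted p = 0.0577). Again positive replicate 3 and negative replicate 1 crossed; the block gave -0.88 (adjusted p = 1.78e-13, but 0.478 with same-set libraries averaged), and the difference was -0.88 within each set. Leaving out positive replicate 3 (adjusted p = 0.0126) or negative replicate 1 (adjusted p = 0.0103) also gave a call.

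ISG15, a ubiquitin-like protein attached to other proteins during the interferon response (chromosome 1, 1001138 to 1014540), ran the other way. It had 67.5, 66.2 and 82.1 in A375 positive libraries, against 33.9, 56.4 and 54.7 in A375 negative libraries, with no overlap (0.59, SE 0.22, adjusted p = 0.143). With the number set blocked it was higher (0.76, adjusted p = 0.0007, but 0.362 with same-set libraries averaged). The median of chromosome 1 was 0.16 in A375, and relative to it ISG15 stood at 0.43. The remaining 11 tested interferon-induced members of A375 were called by neither fit, with log2 fold changes from -0.40 (OAS1) to 0.24 (MX1). OAS3 alone of these was called without positive replicate 3 (0.37, adjusted p = 0.0249). IFI27 had at most 11.4 normalized counts in A375 positive libraries and 6.0 in the negative ones and was not tested.

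With the number set in the model, the high-numbered and the low-numbered A375 libraries were also compared, whatever their branch, in a fit added after the data had been seen. There 12 of 39 members were higher and 3 lower in the high set, beside 18.4% of all genes in each direction, so the members were called about as often as genes in general, with more of the calls upward. IFITM1 (1.02) and ISG20 (0.95) had the highest values, followed by MX1 (0.72), HLA-DMB (0.64), IFI35 (0.62) and ISG15 (0.49). IFI35, a partner of the interferon-induced protein NMI, had 388.3, 364.2 and 604.0 in A375 positive libraries and 404.0, 590.5 and 601.2 in A375 negative libraries. Its 3 high-numbered libraries lay together above its 3 low-numbered ones, with almost no difference between branches (-0.04 in the block fit, adjusted p = 0.659). IRF1, an early transcription factor of the interferon response, was lower in the high set (-0.82), as were CIITA (-0.33) and OAS3 (-0.31). The heavy chains HLA-C (0.27) and HLA-E (0.26) were higher. What separates the sets was not tested.

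**Figure D3:**
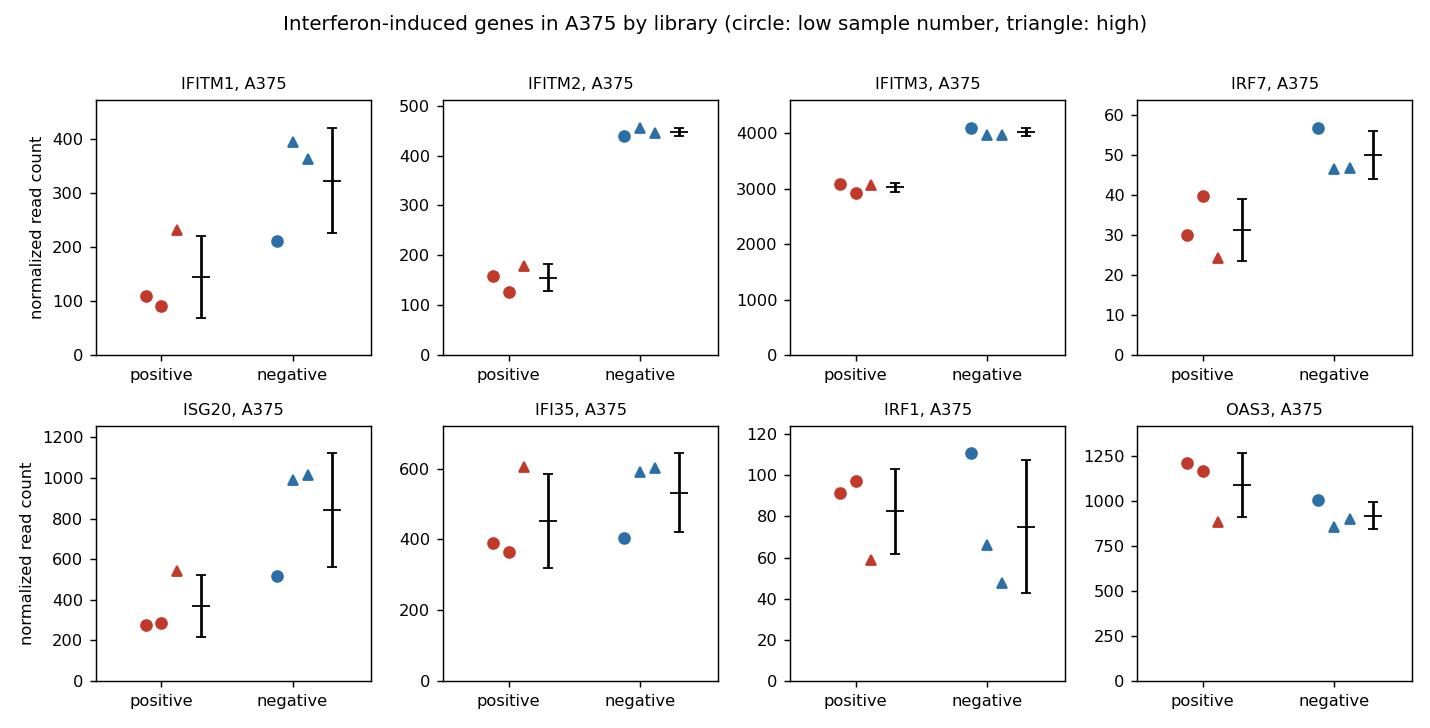
Normalized read counts of 8 interferon-induced members in each A375 library, positive (red) left of negative (blue), circles for low and triangles for high sample numbers, black bars for the mean ± SD of 3 libraries. IFITM2, IFITM3 and IRF7 separate by branch. IFI35, IFITM1, ISG20, IRF1 and OAS3 separate by sample number, their branches overlapping. Within each sample-number set IFITM1 and ISG20 are also lower in the positive libraries.

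**Figure D4:**
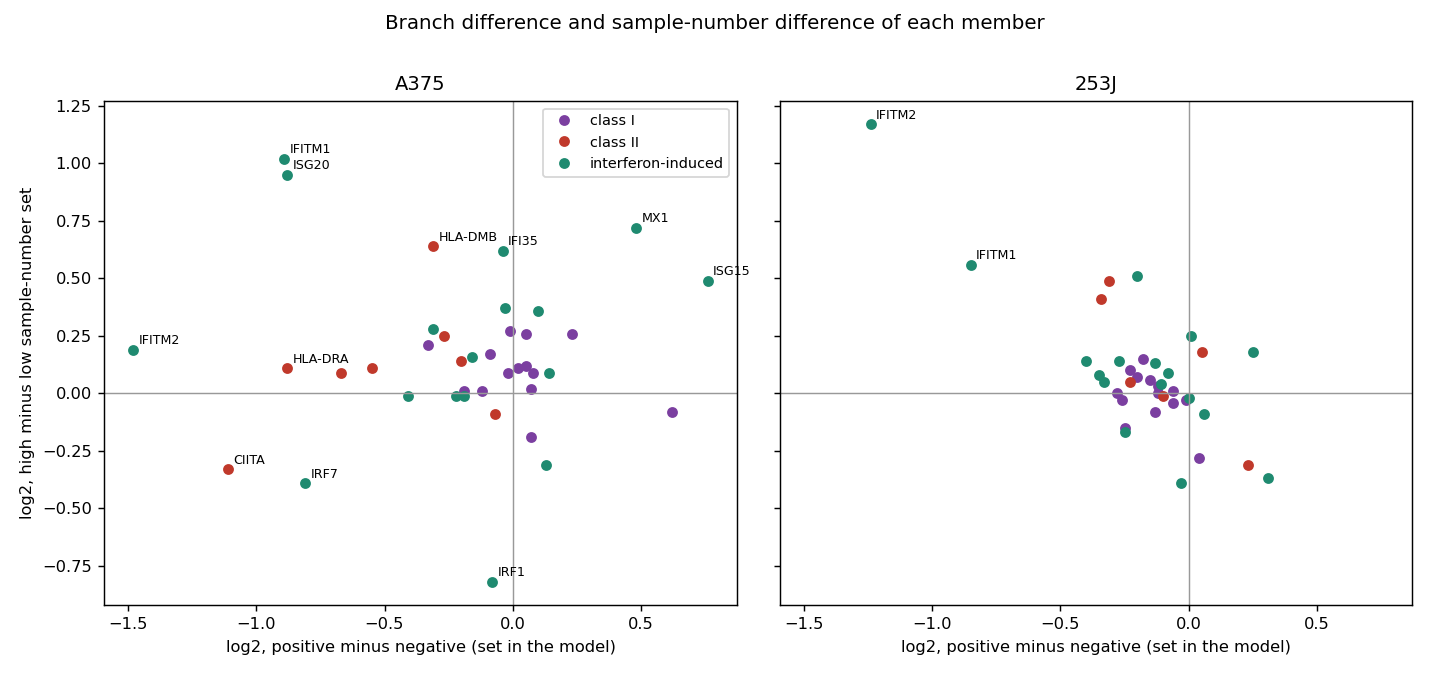
Each tested member's log2 difference between branches (horizontal, positive minus negative, with the number set in the model) against its log2 difference between high and low sample numbers (vertical), in A375 (left) and 253J (right), coloured by class. IFITM2 and the called class II genes of A375 lie left, with heights from -0.33 (CIITA) to 0.19 (IFITM2), while IFITM1 and ISG20 lie left and high.

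In 253J none of the 37 members tested was called by limma, edgeR or DESeq2, while 13 had an unadjusted p under 0.05 (11 lower), beside 13.6% of all genes. Among all 14189 genes 1.09% were called, 0.564% lower and 0.529% higher. The median log2 fold change of the members was -0.13, and 29 of 37 had a negative sign, beside 49.6% of all genes. In 14 members every positive library lay below every negative one and in 1 above, beside 9.83% and 10.4% of all genes (20.2% together). In this line libraries of the same number set deviated together across branches, whether or not their replicate numbers matched. With the replicate number as a block 10 members were lower and 2 higher, beside 6.75% and 7.28% of all genes. With the number set blocked 14 were lower and 2 higher, beside 8.87% and 9.78% (18.6% together). Since 2 of the 3 pairs come from the same number set and differ little, these blocked p-values may be too small, and averaging same-set libraries left no member called by limma in 253J (4 had an unadjusted p under 0.05). Of 6 epithelial markers tested in 253J, CDH1, the adhesion protein E-cadherin, was lower (-0.54, SE 0.08, adjusted p = 0.0194). That call held only without positive replicate 3 or negative replicate 3, and its part in the members' values was not tested.

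Of the 14 class I members of 253J, 13 had a negative sign, beside 49.6% of all genes, and 9 separated downward, beside 9.83%. The class median was -0.14. HLA-B had 4037.6, 3951.3 and 3520.5 normalized counts in 253J positive libraries, against 4437.9, 4480.2 and 4858.4 in 253J negative libraries. Its groups did not overlap (-0.26, SE 0.07, adjusted p = 0.138), and the replicate block gave adjusted p = 0.0068. B2M had 7934.1, 7839.3 and 8426.2 in 253J positive libraries, against 8539.6, 8973.6 and 10041.9 in 253J negative libraries (-0.18, SE 0.07, adjusted p = 0.306), with the lowest negative library just above the highest positive one. With the replicate block its adjusted p was 0.00808. The immunoproteasome subunits PSMB8 and PSMB9 are encoded beside the TAP genes. PSMB8 had 1470.3, 1509.7 and 1510.1 in 253J positive libraries, against 1627.4, 1713.5 and 1805.1 in 253J negative libraries (-0.20, adjusted p = 0.187; 0.0106 with the replicate block). PSMB9 had 768.8, 791.7 and 773.3 in 253J positive libraries, against 858.5, 878.3 and 1004.4 in 253J negative libraries (-0.23, adjusted p = 0.216; 0.0178 with the replicate block). Neither pair of groups overlapped. PSMB9 and TAP1 share 8770 annotated bases on opposite strands.

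HLA-C, HLA-E and TAP1 also separated and were called only with the number set blocked. HLA-C had 6710.8, 6520.5 and 6501.1 in 253J positive libraries, against 7085.6, 6966.5 and 7430.1 in 253J negative libraries (-0.12, adjusted p = 0.365; 0.0178 with the number set blocked). HLA-E had 1738.7, 1764.8 and 1782.1 in 253J positive libraries, against 1902.9, 1953.5 and 1901.4 in 253J negative libraries (-0.12, adjusted p = 0.343; 0.0316 with the number set blocked). In both the branches were close but apart. TAP1, a subunit of the peptide transporter, had 1198.7, 1172.3 and 1091.0 in 253J positive libraries, against 1316.2, 1234.3 and 1241.2 in 253J negative libraries (-0.13, adjusted p = 0.412; 0.0458 with the number set blocked). HLA-F (-0.25) and NLRC5 (-0.28) separated and were called in none of these fits. The summed class I counts ran from 32812.1 to 33825.7 in 253J positive libraries and from 35739.5 to 38319.3 in the negative ones. Of 15 other class I pathway genes tested in 253J none was called by limma, edgeR or DESeq2 (2 had an unadjusted p under 0.05), and 6 separated downward, beside 9.83% of all genes. With the replicate block 3 of them were lower, beside 6.75% of all genes.

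The IFIT genes encode proteins that bind viral RNA and block its translation, and the RNA of IFIT1, IFIT2 and IFIT3 was lower in 253J positive cells with the replicate block. IFIT1 had 309.0, 299.4 and 367.4 in 253J positive libraries, against 397.9, 458.0 and 429.4 in 253J negative libraries (-0.40, SE 0.10, adjusted p = 0.116; 0.00447 with the replicate block). IFIT3 had 345.4, 357.4 and 386.7 in 253J positive libraries, against 415.3, 429.9 and 467.6 in 253J negative libraries (-0.27, adjusted p = 0.189; 0.0131 with the replicate block). Both separated. IFIT2 had 514.3, 559.8 and 759.1 in 253J positive libraries, against 603.2, 627.7 and 883.0 in 253J negative libraries (-0.20, adjusted p = 0.667; 0.0232 with the replicate block). Its branches overlapped because replicate 3 was high in both. All 3 lie opposite the annotated LIPA gene, with which they share bases.

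OAS1 and OAS3, the enzymes that make the activator of RNase L, were the 2 members higher in 253J positive cells with the replicate block. OAS1 had 1034.0, 1030.0 and 1149.8 in 253J positive libraries, against 864.3, 851.9 and 991.3 in 253J negative libraries (0.25, SE 0.08, adjusted p = 0.214; 0.00402 with the replicate block). OAS3 had 5581.7, 5311.2 and 4562.7 in 253J positive libraries, against 4674.9, 4620.0 and 3308.2 in 253J negative libraries (0.31, SE 0.13, adjusted p = 0.367; 0.00111 with the replicate block). OAS1 was higher in each positive library than in each negative one, while OAS3 overlapped because replicate 3 was low in both branches.

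ISG15 had 211.7, 225.6 and 209.1 in 253J positive libraries, against 259.2, 260.2 and 292.0 in 253J negative libraries, with no overlap (-0.33, SE 0.09, adjusted p = 0.15; 0.0203 with the replicate block). IRF1 had 441.6, 423.8 and 327.8 in 253J positive libraries, against 489.5, 439.6 and 484.6 in 253J negative libraries (-0.25, adjusted p = 0.391; 0.0287 with the number set blocked). Positive replicate 1 lay just above negative replicate 2. HLA-DMA, the class II member with a call under the block in both lines, had 160.4, 179.2 and 208.0 in 253J positive libraries, against 212.0, 196.1 and 295.0 in 253J negative libraries (-0.34, adjusted p = 0.413; 0.0265 with the replicate block). IFITM2 had 3.2, 3.2 and 12.2 in 253J positive libraries, against 8.7, 14.9 and 19.1 in 253J negative libraries (-1.24, SE 0.51, adjusted p = 0.338; 0.0463 with the replicate block). At such levels 1 library holds only a few reads of the gene, and the branches overlapped.

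The other tested 253J members were not called in any of these fits, with log2 fold changes from -0.85 (IFITM1) to 0.23 (CIITA). CD74 had 3216.4, 3368.3 and 3091.2 in 253J positive libraries and 3350.1, 3441.9 and 3582.1 in 253J negative libraries (-0.10, SE 0.06, adjusted p = 0.493), which overlap. HLA-DRA and HLA-DPB1 reached at most 2.1 and 5.3 in 253J positive and 2.0 and 4.0 in 253J negative libraries and were not tested, so CD74 was measured in 253J with hardly any RNA of the DR alpha chain. IFITM3 was not tested either, with 5.3, 6.3 and 7.1 in 253J positive and 12.5, 9.7 and 11 in 253J negative libraries. In 253J 7 members were higher and 3 lower in the high number set, beside 14.4% and 18.2% of all genes, with IFITM2 (1.17) and IFIT2 (0.51) highest among the 7 and IRF7 (-0.39) and OAS3 (-0.37) lowest among the 3.

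The difference between the lines was tested directly as the A375 difference minus the 253J difference, and 5 of the 36 members tested were called, beside 6.16% of 12509 genes. Of these, 3 were lower in A375 relative to 253J (2.97% of all genes) and 2 higher (3.18%). The class II genes CIITA and CD74 were among the lower ones, CIITA at -1.23 (SE 0.24, adjusted p = 0.0107) and CD74 at -0.60 (SE 0.09, adjusted p = 0.00284). CIITA had 33.1, 41.1 and 33.5 in 253J positive libraries and 33.7, 34.3 and 24.1 in 253J negative libraries, which overlap, so its separation was seen in A375. The calls for these genes held whichever of the 12 libraries was left out. With same-set libraries averaged, limma called neither of them (lowest adjusted p of a class II member 0.136).

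PSMB10 differed by 0.80 (SE 0.21, adjusted p = 0.0462), with 151.8, 128.6 and 126.9 in 253J positive libraries and 127.2, 157.4 and 169.6 in 253J negative libraries. Its call held only without 253J negative replicate 1 or A375 negative replicate 2. ISG15 differed by 0.92 (SE 0.24, adjusted p = 0.0422), higher in the A375 positive and lower in the 253J positive libraries without overlap in either line. Its call held only without A375 negative replicate 1, 2 or 3. OAS1 differed by -0.65 (SE 0.16, adjusted p = 0.0315), and had 66.4, 74.7 and 84.1 in A375 positive libraries, against 85.8, 109.8 and 102.5 in A375 negative libraries. Its call held only without 253J negative replicate 3, A375 negative replicate 1 or A375 positive replicate 3. The PSMB10, ISG15 and OAS1 calls were thus lost in most of the 12 fits that left out 1 library, and limma called none of them with same-set libraries averaged.

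**Figure D5:**
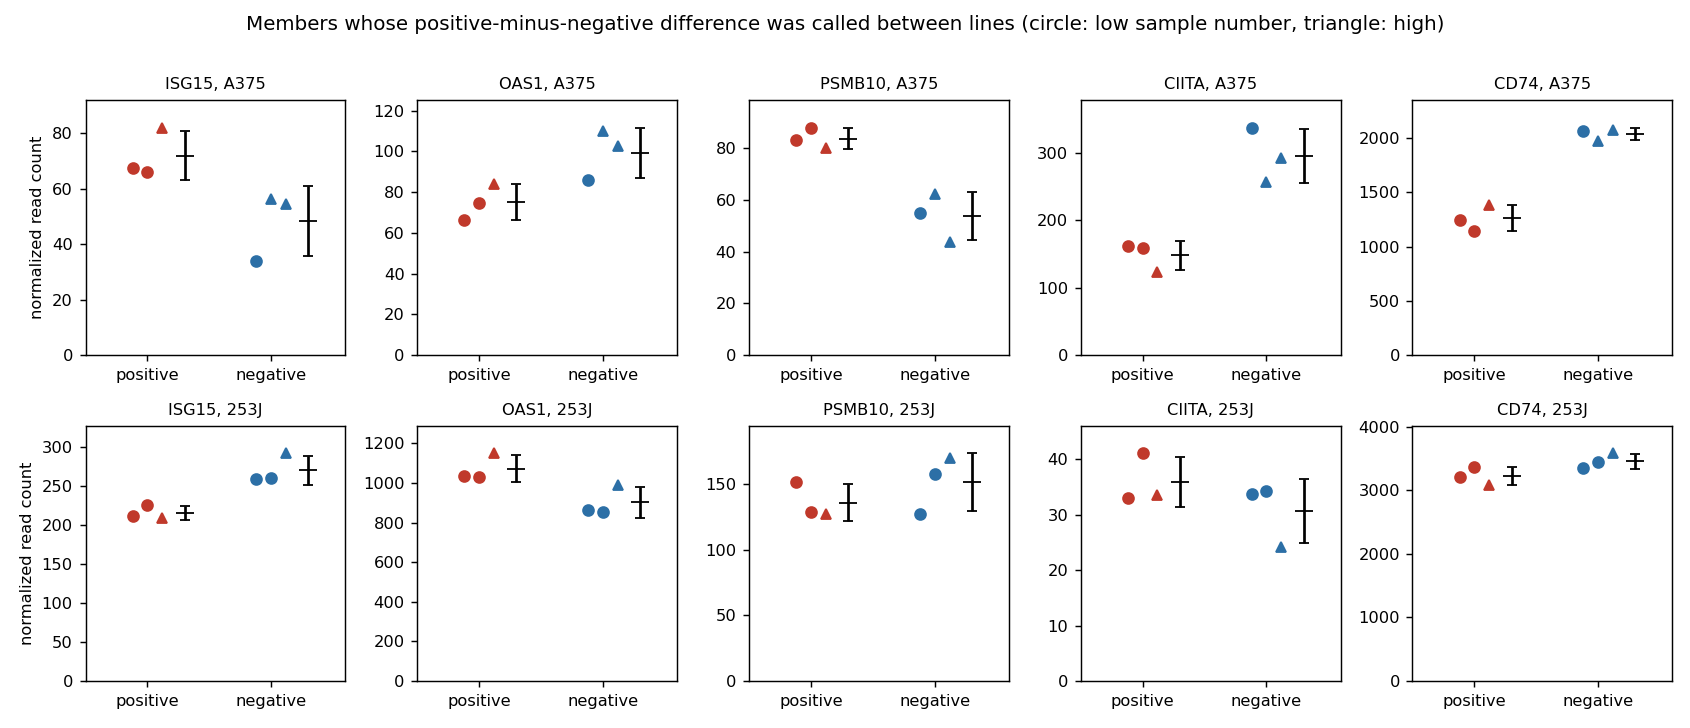
Normalized read counts by library of the 5 members called in the difference between lines, A375 above and 253J below, positive (red) left of negative (blue), circles for low and triangles for high sample numbers, black bars for the mean ± SD of 3 libraries. ISG15 and OAS1 separate in opposite directions in the 2 lines, while CIITA and CD74 separate in A375 and overlap in 253J.

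Of 18 interferon ligand, receptor and signalling genes tested in A375 and 19 in 253J, none was called by limma (4 in each line had an unadjusted p under 0.05). By edgeR none was called, and by DESeq2 only IFNGR1 in 253J. With the replicate block 1 was higher and 3 lower in 253J, beside 7.28% and 6.75% of all genes. In A375 3 genes separated in each direction, beside 14.4% of all genes upward and 15.0% downward. In 253J 2 separated upward and 4 downward, beside 10.4% and 9.83% of all genes. The shared kinase JAK1 had 1693 ± 87.4 in A375 positive libraries and 1471 ± 59.5 in the negative ones (0.20, adjusted p = 0.0763), and JAK2 stood at 0.31 (adjusted p = 0.325) and TYK2 at 0.04 (adjusted p = 0.739). STAT2, a member, stood at -0.21 (adjusted p = 0.206) in A375 and 0.01 (adjusted p = 0.982) in 253J. IRF9, the DNA-binding partner of STAT2, stood at 0.11 (adjusted p = 0.789) and -0.35 (adjusted p = 0.45). STAT3 stood at -0.02 in A375 and -0.03 in 253J (adjusted p = 0.885 and 0.902).

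The type I receptor chains IFNAR1 and IFNAR2 stood at 0.01 and -0.07 in A375 (adjusted p = 0.966 and 0.725). In 253J they stood at -0.20 and -0.07 (adjusted p = 0.251 and 0.707), and with the replicate block IFNAR1 had adjusted p = 0.0203. IFNGR1, the ligand-binding chain of the interferon gamma receptor, had 226.6 ± 8.61 in A375 positive libraries and 270.6 ± 28.3 in the negative ones (-0.25, adjusted p = 0.165). In 253J it had 398 ± 23.9 in positive and 303.5 ± 5.50 in negative libraries (0.39, adjusted p = 0.0632; 0.00298 with the replicate block, 0.0433 with DESeq2), and its difference between lines was called (-0.64, SE 0.12, adjusted p = 0.0088). IFNGR2 stood at -0.01 in A375 and -0.14 in 253J (adjusted p = 0.976 and 0.297). In 253J JAK1 stood at 0.07, JAK2 at 0.20 and TYK2 at 0.05 (adjusted p = 0.592, 0.528 and 0.733).

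Of 40 other interferon-induced genes tested in A375, 2 were higher and 1 lower, about as often as all genes (4.99% higher and 5.26% lower). In 253J 0 of 34 were called by limma (8 with an unadjusted p under 0.05), 1 by edgeR and 3 by DESeq2. With the replicate block 1 was higher and 8 lower in 253J, beside 7.28% and 6.75% of all genes. IFI44, an interferon-induced cytoplasmic protein, had 47.8, 52.0 and 85.1 in A375 positive libraries, against 5.0, 12.9 and 10.9 in A375 negative libraries. It was 6.08-fold higher (2.60, SE 0.37, adjusted p = 0.00573) and stayed called whichever of the 6 libraries was left out, while the interferon-induced members of A375 had a negative median. With same-set libraries averaged, limma called none of these 40 genes in A375 (lowest adjusted p 0.0997). IFI44 lies on chromosome 1 and stood at 2.44 relative to that chromosome's median, and in 253J it was not called (0.22, adjusted p = 0.35). STAT6, which carries interleukin 4 signals, was higher in A375 (0.25, adjusted p = 0.0176) and TRIM5, a restriction factor of chromosome 11, was lower (-0.40, adjusted p = 0.011). The median of chromosome 11 was -0.27 in A375. Of 12 nucleic acid sensors and adaptors tested in A375, MAVS, the adaptor of the RNA sensors, was higher (0.21, adjusted p = 0.0266). Those 3 calls were each lost when positive replicate 2 or negative replicate 2 or 3 was left out, and those of STAT6 and MAVS also when positive replicate 1 was (highest adjusted p 0.0824 for STAT6, 0.063 for TRIM5 and 0.117 for MAVS). No sensor of A375 was called by limma with same-set libraries averaged (lowest adjusted p 0.276). In 253J, limma called 0 of 11 sensors and 0 of 10 other class II pathway genes, with 2 of each at an unadjusted p under 0.05, and edgeR and DESeq2 called none. With the replicate block 1 sensor was higher and 2 lower, and 1 other class II pathway gene was higher and 1 lower, beside 7.28% and 6.75% of all genes.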

How the data were processed

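Poly(A) RNA-seq of A375 and 253J branches was analysed from the deposited gene tables. The deposited values are a signal: the authors divided gene counts by 1 size factor for each library and rounded to 0.1. The submitters' processing notes list STAR 2.4.2a, cutadapt, DESeq2, HTSeq and the GRCh38 build; order, annotation and strand setting are not given in the sources used here. Dividing by each library's smallest step returned whole reads for 100% of values (within 0.06).

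Genes whose mean was 10 or more were tested with limma-trend under R 4.3.3 (limma 3.58.1) after log2(value + 1), the threshold being a Benjamini-Hochberg adjusted p of 0.05, each line alone and, for the difference between lines, all 12 libraries together. The plan named a count test for raw counts and this test for normalized values. Alternatives used edgeR 4.0.16 and DESeq2 1.42.0 on recovered reads, TMM scaling, other pseudocounts and filters, blocks, averaged libraries and each library left out. In 253J same-numbered libraries deviated together (correlations 0.286, 0.187 and 0.496), so blocked values stand beside the results. Crossed pairs of replicates 1 and 2, which share a number set, did so about as much (0.21 and 0.165). The correlations thus follow the number set and do not single out the replicate number. No shared culture is stated for same-numbered libraries.

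Every member is reported by class, with library values for those called in either line, with the number set as a block, or between lines. From each other list up to 3 called genes per line are named, and the receptors and JAK-STAT genes in any case. Some genes that this rule names are not reported here. The members and lists were chosen with earlier results of these data known. The fit of the number set, the chromosome medians and the promoter search were added after the data had been seen. Positions are from GENCODE release 29.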

Additional observations from a re-analysis of the deposited data

Results flagged for a closer look

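In 5 members the positive-minus-negative difference differed between the lines in the test of the difference itself (limma, all 12 libraries). The A375 difference minus the 253J difference was -1.23 for CIITA (adjusted p = 0.0107), -0.60 for CD74 (adjusted p = 0.00284), -0.65 for OAS1 (adjusted p = 0.0315), 0.80 for PSMB10 (adjusted p = 0.0462) and 0.92 for ISG15 (adjusted p = 0.0422). The number sets are divided differently between the branches of the 2 lines; with the number set blocked all 5 were called as well, and with same-set libraries averaged limma called none (lowest adjusted p of a member 0.136; 7 members with an unadjusted p under 0.05).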

How the results depend on the processing

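No called member changed direction under any alternative run. Pseudocounts of 0.5 and 4, TMM scaling, a mean of at least 50 and edgeR kept each line's count of called members, while DESeq2 and no filter on low values gave 6 in A375 and 0 in 253J, losing PSMB10. In the difference between lines 3 members were called with no filter on low values and 4 with a mean of at least 50, which removes CIITA. Replicate numbers join libraries of the same number set in 253J, but not for replicate 2 in A375 (A375 correlations 0.415, -0.272 and 0.397). The replicate block gave 2429 called genes in A375 against 1447 without it, 1991 against 155 in 253J and 2032 against 770 between lines. In 253J it gave 12 called members in place of 0. The number set as a block gave 4523, 2645 and 3504 genes, and 13, 16 and 12 members. Averaging same-set libraries left 53, 21 and 85 genes. Of the members it left 1 (IFITM2, adjusted p = 0.0464) in A375, with adjusted p 0.0667 to 0.166 for the 4 class II calls, and 0 between lines. DESeq2 called 301 genes in 253J. Leaving out 1 library at a time gave 488 to 1878 genes and 6 to 9 members in A375, 39 to 370 genes and 0 to 1 members in 253J (OAS1, without negative replicate 3, adjusted p = 0.0352), and 446 to 906 genes and 2 to 5 members between lines. Why counts moved between these settings was not tested. Class II and IFITM calls of A375 were kept in all 6 such fits, and HLA-DMA was gained without negative replicate 1 (adjusted p = 0.0469). With few reads, IFITM1, IFITM2 and HLA-DMB of 253J could not show small differences.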
